A study of Mus musculus with 60 samples.

Results

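The 5 genes that mark the axial progenitors of the mouse tailbud were followed through RNA sequencing of 27 single tailbuds. They are represented by 5 of the 117135 transcripts in each deposited table, and the transcripts were chosen by identifier: ENSMUST00000074667 for T (brachyury), ENSMUST00000099151 for Sox2, ENSMUST00000010044 for Wnt3a, ENSMUST00000094037 for Tbx6 and ENSMUST00000025946 for Cyp26a1. The symbols come from the list that defined the set. No table used here pairs Ensembl transcript identifiers with genes, so these 5 names could not be checked, and they are used below as that list gives them. Other transcripts of the same genes are not included.

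The tailbuds came from 16 wild-type and 11 mutant embryos, staged by the number of somites, the paired blocks of tissue laid down along the body axis. There were 4 wild-type embryos at each of 12, 13, 14 and 16 somites, and 2, 2, 2 and 5 mutants at these stages. The labels give the genotype only as WT or MUT. According to the series' design text the tailbud mutation is JARID2 K116R, which replaces a lysine of JARID2 with arginine. JARID2 is a partner protein of PRC2, the Polycomb complex that methylates histone H3 at silent genes of development. Whether the mutants carry 1 or both altered alleles, and the strain, litter, sex and batch of the embryos, are not given in the sources used here. Each library is from 1 embryo. The other 33 samples of the series, chromatin libraries of embryonic stem cells, were not analysed here.

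The tailbud holds neuromesodermal progenitors, cells that can give rise to both spinal cord and paraxial mesoderm, the tissue that forms somites. T and Sox2 are the pair of transcription factors that together mark these cells: T is a T-box factor needed for posterior mesoderm, and Sox2 is an HMG-box factor of the neural lineage. Wnt3a is the secreted ligand that sustains the progenitors and mesoderm formation through beta-catenin, Tbx6 is the T-box factor that commits cells to paraxial mesoderm at the expense of neural fate, and Cyp26a1 is the enzyme that degrades retinoic acid and so shields the tailbud from the retinoic acid made by the somites.

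Libraries held 20908470 to 27090684 estimated counts, and all 5 transcripts passed the filter on low counts that left 45394 transcripts for testing. Within groups, each library had a mean Pearson r across these transcripts (on log2 CPM, counts relative to library size) of 0.864 to 0.898 with the other libraries of its group, apart from mutant embryos at 16 somites. There, embryo 1 had a mean r of 0.836 with the other 4, which had 0.874 to 0.878. The value of 0.864 belongs to wild-type embryo 4 at 14 somites, whose group mates had 0.880 to 0.885. The effects over stages of the 5 genes are given with and without these 2 libraries. The tissue markers and the JARID2 transcript could not be found by name and were not analysed here, so neither the labelled tissue nor the genotype was checked on its own genes.

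Levels are given in TPM, a relative abundance that is scaled by transcript length and can be set side by side between genes. Cyp26a1 was the most abundant, with 175.9 ± 46.8 TPM (SD, n = 27), followed by Tbx6 with 47.7 ± 11.3, T with 39.1 ± 9.20, Wnt3a with 15.5 ± 4.75 and Sox2 with 6.70 ± 1.82. This order held almost embryo by embryo. Cyp26a1 lay above Tbx6, T above Wnt3a and Wnt3a above Sox2 in 27 of 27 embryos, and Tbx6 lay above T in 26 of 27. Across embryos the ranges of Tbx6 (23.9 to 68.1) and T (19.5 to 59.5) overlapped over most of their length, those of T and Wnt3a (8.32 to 28.7) in part, and those of Wnt3a and Sox2 (1.94 to 11.4) narrowly. The lowest Cyp26a1 value, 92.1, was above the highest Tbx6 value. The counts behind these values ran from 4315 to 13998 for Cyp26a1 and from 96 to 546 for Sox2, so Sox2 carries the largest counting error of the set.

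**Figure D1:**
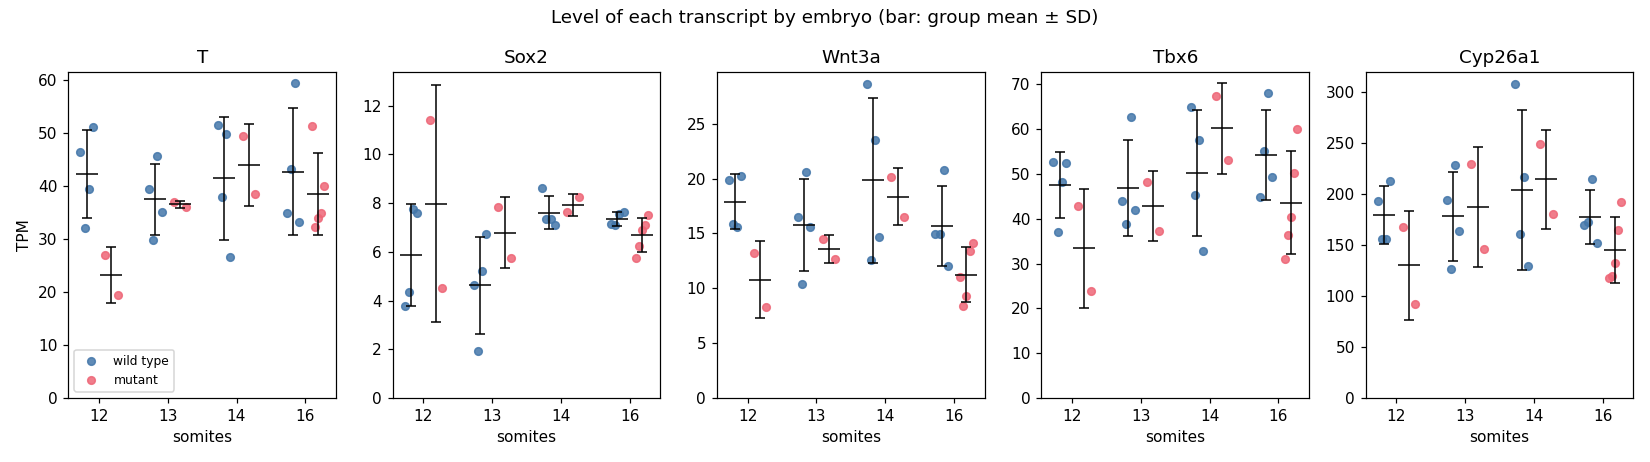
TPM of the 5 transcripts in each embryo by somite number (x axis), with wild type in blue and mutants in red; the bars are group means ± SD (n = 4 wild-type embryos per stage, and 2, 2, 2 and 5 mutants). The axes start at 0 and differ between genes. At 12 somites both mutants lie below all 4 wild-type embryos for T and Wnt3a; in every other panel and stage the genotypes overlap.

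Wnt3a, the ligand, had the lowest mutant level relative to wild type of the set: 17.3 ± 4.70 TPM in wild type (n = 16) and 12.9 ± 3.59 in mutants (n = 11). At 12 somites the wild-type embryos had 19.9, 15.8, 15.6 and 20.2 TPM and the mutants 13.3 and 8.32. Both mutants were thus below every wild-type embryo of their stage. At 13 somites the values were 16.5, 10.4, 20.6 and 15.6 in wild type and 14.5 and 12.7 in mutants. At 14 somites they were 28.7, 12.5, 23.5 and 14.7 in wild type and 20.2 and 16.5 in mutants. The genotypes overlapped at both stages, with the mutants inside the wild-type range. At 16 somites wild-type embryos had 14.9, 15.0, 20.8 and 12.0 TPM, and mutants 11.1, 8.36, 9.28, 13.4 and 14.1. Of these 5 mutants, 3 were below the lowest wild-type embryo. The same 3 mutants, embryos 1, 2 and 3, were below the wild-type range at 16 somites for Tbx6, Cyp26a1 and Sox2. These TPM values come from the same libraries and are not separate observations. The share of all transcripts with this pattern was not computed. With stage held constant, the mutant effect on Wnt3a was -0.25 on the log2 scale (SE 0.124, unadjusted p = 0.0572, adjusted p = 0.672 by edgeR's quasi-likelihood test). It did not pass the threshold of 0.05 after Benjamini-Hochberg adjustment over all 45394 transcripts. Without the 2 libraries that stand apart the effect was -0.30 (unadjusted p = 0.0148, adjusted p = 0.528).

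T had 41.0 ± 9.12 TPM in wild type and 36.4 ± 9.03 in mutants. At 12 somites wild-type embryos had 46.5, 32.1, 39.5 and 51.1 TPM and the mutants 27.0 and 19.5. These are the lowest value and the third lowest of all 27 embryos, and neither overlapped with wild type of that stage. At 13 somites wild type had 39.4, 29.8, 45.7 and 35.1, and mutants 37.1 and 36.1. At 14 somites wild type had 51.5, 38.0, 49.8 and 26.6, and mutants 49.5 and 38.5. At 16 somites wild type had 35.0, 43.2, 59.5 and 33.3, and mutants 51.5, 32.3, 34.0, 35.0 and 40.1. From 13 somites on the mutants lay within or close to the wild-type range. The effect over stages was -0.071 (SE 0.138, adjusted p = 0.965, edgeR), and without the 2 libraries that stand apart it was -0.19 (adjusted p = 0.722). The 12-somite effect was -0.69 (SE 0.289, unadjusted p = 0.0263, adjusted p = 1).

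Tbx6, the commitment factor of paraxial mesoderm, had 49.8 ± 10.2 TPM in wild type and 44.6 ± 12.7 in mutants. At 12 somites wild type had 52.7, 37.0, 48.2 and 52.5 TPM, and mutants 42.8 and 23.9. At 13 somites wild type had 44.0, 38.8, 62.7 and 42.0, and mutants 48.3 and 37.3. At 14 somites the order of means turned, with 65.0, 45.3, 57.6 and 32.8 in wild type and 67.3 and 53.0 in mutants. At 16 somites wild type had 45.0, 55.1, 68.1 and 49.3, and mutants 31.0, 36.5, 40.3, 50.2 and 60.0. The genotypes overlapped at every stage. The effect over stages was -0.061 (SE 0.123, adjusted p = 0.968, edgeR), and -0.086 without the 2 libraries that stand apart (adjusted p = 0.947).

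Cyp26a1 had 184.9 ± 45.2 TPM in wild type and 163 ± 48.1 in mutants. At 12 somites wild type had 194, 156, 156 and 213 TPM, and mutants 168 and 92.1. At 13 somites wild type had 194, 127, 228 and 164, and mutants 229.5 and 146. At 14 somites wild type had 309, 161, 217 and 129.8, and mutants 249 and 180.2. At 16 somites wild type had 169, 173, 215 and 152, and mutants 118, 119.8, 132, 165 and 192. At 12 somites 1 mutant, and at 16 somites 3 of the 5, were below the wild-type range of their stage. At 13 somites 1 mutant was above it (229.5 against 228), and at 14 somites both were inside. The effect over stages was -0.035 (SE 0.126, adjusted p = 0.986, edgeR), and -0.069 without the 2 libraries that stand apart (adjusted p = 0.975).

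Sox2, the neural member of the pair, was the one gene of the 5 with a higher mean in mutants over all embryos. It had 6.37 ± 1.82 TPM in wild type and 7.17 ± 1.79 in mutants. At 12 somites wild type had 3.78, 4.36, 7.74 and 7.61 TPM, and mutants 11.4 and 4.53. The value of 11.4 was the highest of all 27 embryos. At 13 somites wild type had 4.65, 1.94, 5.20 and 6.71, and mutants 7.83 and 5.75. At 14 somites wild type had 8.64, 7.35, 7.34 and 7.11, and mutants 7.62 and 8.25. At 16 somites wild type had 7.14, 7.10, 7.55 and 7.64, and mutants 5.74, 6.26, 6.90, 7.10 and 7.51. The mean at 16 somites was thus lower in mutants, 6.70 TPM against 7.36 in wild type. Sox2 was thus widely spread at 12 and 13 somites (SD 2.09 and 1.99 in wild type, 4.87 and 1.47 in mutants) and closely grouped at 14 and 16 somites (0.694 and 0.278, and 0.448 and 0.702). The effect over stages was 0.32 (SE 0.153, unadjusted p = 0.0480, adjusted p = 0.648, edgeR), and did not pass the adjusted threshold. Without the 2 libraries that stand apart it was 0.32 (unadjusted p = 0.0603, adjusted p = 0.693). The stage effects were 0.56 at 12 somites, 0.71 at 13 (unadjusted p = 0.0428, adjusted p = 1), 0.15 at 14 and 0.036 at 16. On log2(TPM + 1) with limma the effect at 16 somites was -0.12. The 12-somite effect rests on mutant embryo 1, and was -0.069 without it. With 1 embryo left out at a time the 13-somite effect was 0.486 to 0.978.

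Over all stages, 0 of the 5 transcripts passed the adjusted threshold in the genotype comparison, where 0.0154% of all transcripts did (7 of 45394). DESeq2 and limma on log2(TPM + 1) also called 0 of 5. The size of the effects depended on the scale. The TPM values above lack the scaling between libraries that edgeR applies. On that scale all 5 effects were lower than by edgeR, and why was not tested. With limma on log2(TPM + 1) they were -0.20 for T (adjusted p = 0.518), 0.15 for Sox2 (adjusted p = 0.668), -0.35 for Wnt3a (unadjusted p = 0.0145, adjusted p = 0.305), -0.20 for Tbx6 (adjusted p = 0.545) and -0.17 for Cyp26a1 (adjusted p = 0.614). At an unadjusted p under 0.05 there was 1 of 5 by each of the 3 tools (Sox2 by edgeR and DESeq2, Wnt3a by limma), against 7.63% of all transcripts by edgeR. The counts for single stages were likewise 0 of 5 after adjustment by all 3 tools. At 12 somites 1 of 5 had an unadjusted p under 0.05 by edgeR (T), against 3.83% of all, and 0% of all passed the adjusted threshold. DESeq2 gave 1 of 5 there, and limma on log2(TPM + 1) 2 of 5 (T and Wnt3a, unadjusted p = 0.00404 and 0.0240). At 13 somites 1 of 5 had an unadjusted p under 0.05 by edgeR (Sox2), against 3.39% of all (0.00661% after adjustment). DESeq2 gave 1 of 5 there and limma 0 of 5. At 14 and 16 somites the 3 tools each gave 0 of 5, against 3.1% and 6.13% of all by edgeR (0.00661% and 0% after adjustment). The 2 genes whose mutants lay below all wild-type embryos at 12 somites, T and Wnt3a, stand beside 11.8% of all tested transcripts with that pattern at that stage and 3.23% with the opposite one. No gene of the set was without overlap at 13, 14 or 16 somites, where 10.6%, 8.4% and 3.81% of all transcripts were. A test of whether the effect differed between stages gave unadjusted p-values of 0.151 for T, 0.366 for Sox2, 0.480 for Wnt3a, 0.304 for Tbx6 and 0.520 for Cyp26a1 (edgeR, adjusted p = 1 for each), with 0.00661% of all transcripts called and 2.95% at an unadjusted p under 0.05. A p above the threshold does not show that the genotypes are alike: the standard errors of the stage effects, 0.203 to 0.332, are as large as many of the effects.

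**Figure D2:**
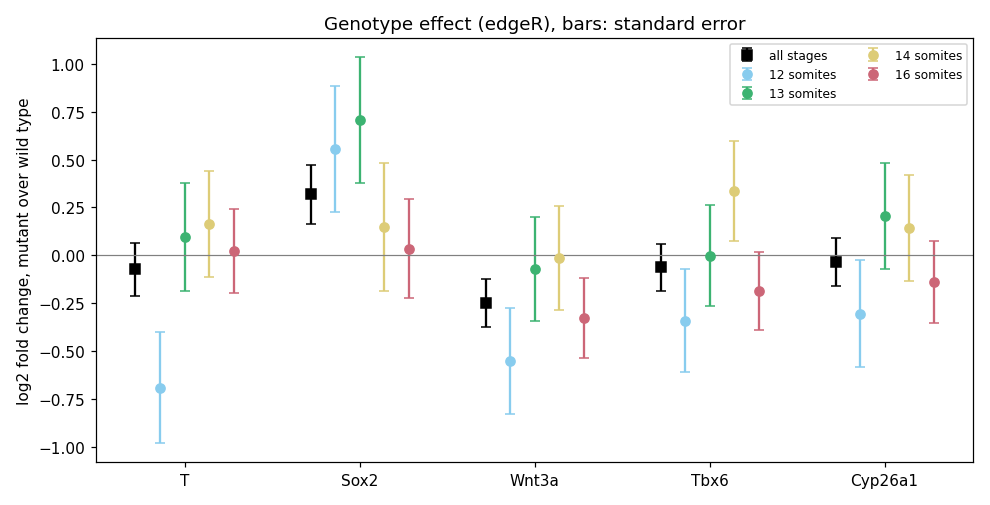
Log2 fold change of mutant over wild type (y axis) for the 5 transcripts, over all stages (black squares) and at each stage (coloured circles), from edgeR; the bars are standard errors. Over all stages Sox2 lies at 0.32 and Wnt3a at -0.25, and T, Tbx6 and Cyp26a1 lie between -0.071 and -0.035; no effect passes the adjusted threshold.

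No slope with somite number of the 5 genes passed the adjusted threshold. In wild type the slopes, in log2 units per somite, were 0.035 for T, 0.13 for Sox2 (SE 0.0732, unadjusted p = 0.0853), -0.011 for Wnt3a, 0.074 for Tbx6 and 0.021 for Cyp26a1. None of the 5 passed the adjusted threshold by edgeR, DESeq2 or limma, and none had an unadjusted p under 0.05, where 0.0218% and 2.74% of 36763 transcripts did by edgeR. Among mutants the slope of T was 0.16 (SE 0.0557, unadjusted p = 0.0142, adjusted p = 0.759, edgeR). The mutant means did not rise steadily: 23.2 TPM at 12 somites, 36.6 at 13, 44.0 at 14 and 38.6 at 16. The T slope was the single slope of the 5 with an unadjusted p under 0.05 by edgeR, and 0 of 5 passed after adjustment, where 6.07% and 0.0255% of 39151 transcripts did. Limma on log2(TPM + 1) gave the T slope as 0.12 (unadjusted p = 0.0685, adjusted p = 0.749). DESeq2 gave the T slope an adjusted p of 0.279, the lowest of any test of the 5 transcripts. Without mutant embryo 1 at 16 somites, which had the highest T of its group, the slope was 0.11 (unadjusted p = 0.0345). The slopes of the other 4 in mutants were -0.0046 for Sox2, -0.0017 for Wnt3a, 0.085 for Tbx6 and 0.010 for Cyp26a1. The difference of slopes between genotypes (mutant minus wild type) was 0.12 for T, -0.14 for Sox2, 0.0030 for Wnt3a, 0.0056 for Tbx6 and -0.017 for Cyp26a1. These differences had unadjusted p-values of 0.154 and above and an adjusted p of 1 (edgeR), and 0% of all transcripts were called (4.58% at an unadjusted p under 0.05).

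The balance of the mesodermal and neural factors was read as a ratio of TPM within each embryo, which does not depend on how libraries are scaled to each other. The T to Sox2 ratio had a median of 6.41 in wild type (3.74 to 15.4) and 4.93 in mutants (2.37 to 8.96). The 12-somite mutants had 2.37 and 4.30, below all 4 wild-type embryos of the stage (5.10 to 12.3), and the ranges overlapped at the other stages. Of single transcripts, 11.8% had both mutants below at 12 somites, and the share among ratios was not computed. Within stages, the mutant ratio was lower by a mean of -0.39 on the log2 scale, with 9 of 11 mutants below the wild-type mean of their stage. An exact two-sided permutation of genotype within stages gave p = 0.0642, or 0.0963 after adjustment over the 3 ratios tested. Leaving out 1 embryo at a time gave differences of -0.47 to -0.26 (exact permutation p = 0.0247 to 0.189, lowest adjusted p = 0.0543). Without mutant embryo 1 at 16 somites the difference was -0.46 (exact permutation p = 0.0247, adjusted p = 0.0741), and without wild-type embryo 4 at 14 somites -0.44 (0.0370 and 0.0554). The smallest difference, -0.26, was without mutant embryo 1 at 12 somites. At 12 somites the Tbx6 to Sox2 ratio was also lower in both mutants than in all 4 wild-type embryos. It had a median of 7.64 in wild type (4.61 to 20.0) and 6.17 in mutants (3.75 to 8.84). Its mean difference was -0.39, with 8 of 11 mutants below, and the exact permutation p was 0.0402, or 0.0963 adjusted. Neither ratio passed after adjustment. Without mutant embryo 1 at 16 somites the Tbx6 to Sox2 difference was -0.37 (exact permutation p = 0.0549, adjusted p = 0.0823). Without wild-type embryo 4 at 14 somites it was -0.43 (exact permutation p = 0.0175, adjusted p = 0.0525). With 1 embryo left out at a time the Tbx6 to Sox2 difference ranged from -0.48 to -0.30 (exact permutation p = 0.0143 to 0.104). Leaving out mutant embryo 1 at 14 somites alone brought the Tbx6 to Sox2 ratio to -0.48 with an adjusted exact permutation p of 0.0430. Both ratios differed most at the early stages: the T to Sox2 difference was -1.23 at 12 somites, -0.69 at 13, 0.058 at 14 and 0.011 at 16, and the Tbx6 to Sox2 difference -0.92, -0.79, 0.24 and -0.20. Whether these stage differences differ from each other was not tested. Both ratios share the Sox2 values and are not separate observations. At 13 somites the edgeR effects were 0.096 for T and -0.00019 for Tbx6, and 0.71 for Sox2. The Tbx6 to T ratio, between the T-box factors, differed by 0.0070 (exact permutation p = 0.965), with a median of 1.21 in wild type and 1.30 in mutants. Mutant embryo 1 at 16 somites had the lowest Tbx6 to T ratio, 0.602, against 1.03 to 1.59 in the other 26 embryos.

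The remaining 7 ratios were computed after the values of the 5 genes had been seen and are described without a test. The Wnt3a to Cyp26a1 ratio had a lower mean in mutants at each of the 4 stages: the difference of the log2 ratio was -0.24 at 12 somites, -0.25 at 13, -0.17 at 14 and -0.18 at 16. In 10 of 11 mutants the ratio was below the wild-type mean of their stage, with a median of 0.0810 in mutants (0.0632 to 0.0937) and 0.0939 in wild type (0.0777 to 0.113). The Wnt3a to Sox2 ratio differed by -0.57, also with 10 of 11 mutants below, from a median of 2.71 in wild type to 1.88 in mutants. The other 5 differences were -0.17 for Wnt3a to T, -0.18 for Wnt3a to Tbx6, -0.36 for Cyp26a1 to Sox2, 0.034 for Cyp26a1 to T and 0.027 for Cyp26a1 to Tbx6. The 4 ratios with Wnt3a on top share its values and are not separate observations. The signs of the 3 ratios among T, Tbx6 and Cyp26a1 depended on single embryos: with 1 left out at a time the differences ran from -0.023 to 0.10 for Cyp26a1 to T, from -0.0078 to 0.054 for Cyp26a1 to Tbx6 and from -0.047 to 0.089 for Tbx6 to T. The highest values for Tbx6 to T and Cyp26a1 to T were without mutant embryo 1 at 16 somites.

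**Figure D3:**
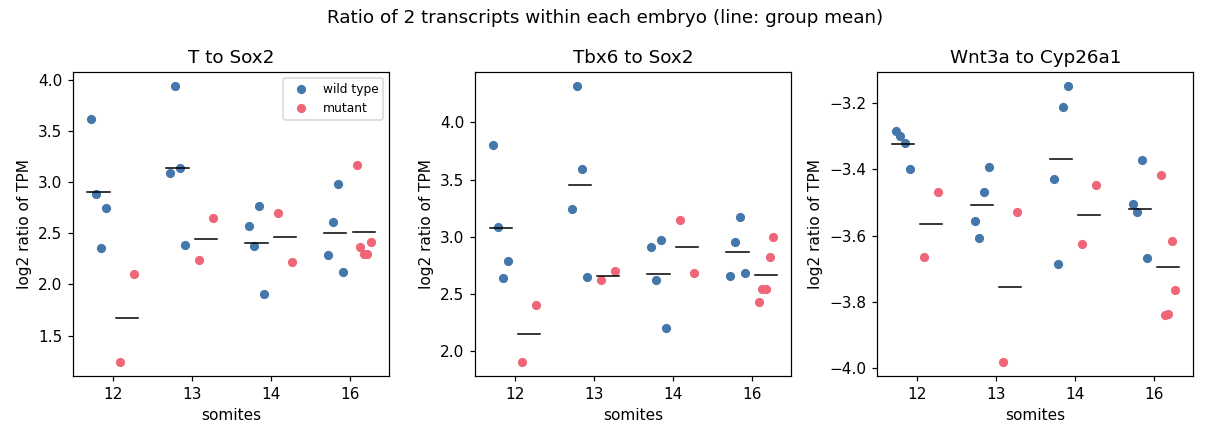
Log2 ratio of TPM within each embryo (y axis) for T to Sox2, Tbx6 to Sox2 and Wnt3a to Cyp26a1 by somite number (x axis), with wild type in blue, mutants in red and lines at group means. The T to Sox2 and Tbx6 to Sox2 ratios of mutants have lower means at 12 and 13 somites, and differ from wild type by 0.24 or less at 14 and 16; the Wnt3a to Cyp26a1 means are lower in mutants at all 4 stages.

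Embryos of the same genotype and stage differed from each other in a coordinated way. For each embryo, the deviation of log2(TPM + 1) from the mean of its group was taken, and correlated between genes over the 27 embryos, with p from 100000 permutations within groups and adjustment over the 10 pairs. All values of an embryo come from 1 library. Tbx6 and Cyp26a1 had a Pearson r of 0.916 (Spearman rho 0.908), and Wnt3a and Cyp26a1 an r of 0.901 (rho 0.888), each with a permutation p of 1e-05, the smallest that the permutations can give (adjusted p = 5e-05 for r and 0.0001 for rho). Wnt3a and Tbx6 had an r of 0.800 (rho 0.813, adjusted permutation p = 0.000833 for r and 0.0005 for rho), and T and Wnt3a one of 0.772 (rho 0.809, 0.0009 and 0.000433). T with Cyp26a1 gave 0.712 (rho 0.666, adjusted permutation p = 0.00104 and 0.00202) and T with Tbx6 0.671 (rho 0.678, 0.00333 and 0.00232). Without the 2 embryos farthest from the median of the first gene, these 6 values of r were 0.606 to 0.908. Sox2 followed less closely, with r of 0.535 to Cyp26a1, 0.494 to Tbx6 and 0.466 to Wnt3a (rho 0.657, 0.593 and 0.484, adjusted permutation p = 0.0291, 0.0412 and 0.0412 for r, and 0.0051, 0.00736 and 0.0248 for rho). Its r was 0.321 to T (rho 0.335, adjusted permutation p = 0.126 and 0.114), which did not pass. Without the 2 farthest embryos the Sox2 values were 0.541, 0.604, 0.403 and 0.254.

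In 21 of 27 embryos T, Wnt3a, Tbx6 and Cyp26a1 all lay on the same side of their group means, 10 above and 11 below; in the 3 mutant groups of 2 embryos the deviations mirror each other by construction. Wild-type embryo 1 at 14 somites was high in all 4 (0.35 for T, 0.58 for Wnt3a, 0.41 for Tbx6 and 0.67 for Cyp26a1), and wild-type embryo 4 of the same stage was low in all 4 (-0.58, -0.34, -0.55 and -0.57). Their Sox2 deviations were 0.17 and -0.082. Mutant embryo 1 at 16 somites broke the pattern, with T at 0.43, Wnt3a at 0.0024, Tbx6 at -0.44 and Cyp26a1 at -0.27. Its library had the lowest total (20908470) and the fewest transcripts with a count (44612) of the 27. Whether library quality bears on this break was not tested. The r of T and Tbx6 was 0.944 in wild type (n = 16) and 0.198 in mutants (n = 11), but 0.911 in mutants without that embryo (n = 10). Over the 26 embryos left it was 0.893, and those of T with Cyp26a1 and Wnt3a were 0.845 and 0.824. The Sox2 and Tbx6 relation had an adjusted permutation p of 0.0726 without that embryo (r 0.483). In bulk tissue, a change in the number of cells of a type and a change in the RNA of each cell cannot be told apart. Deviations of the log2 library total had an r with those of the genes from -0.073 for T to 0.239 for Sox2 (rho from -0.076 to 0.166 over the 5), and from 0.0061 to 0.314 without the 2 libraries farthest from the median total. No such relation passed the threshold (lowest permutation p = 0.277 for r and 0.446 for rho, lowest adjusted p = 0.491 for r).

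**Figure D4:**
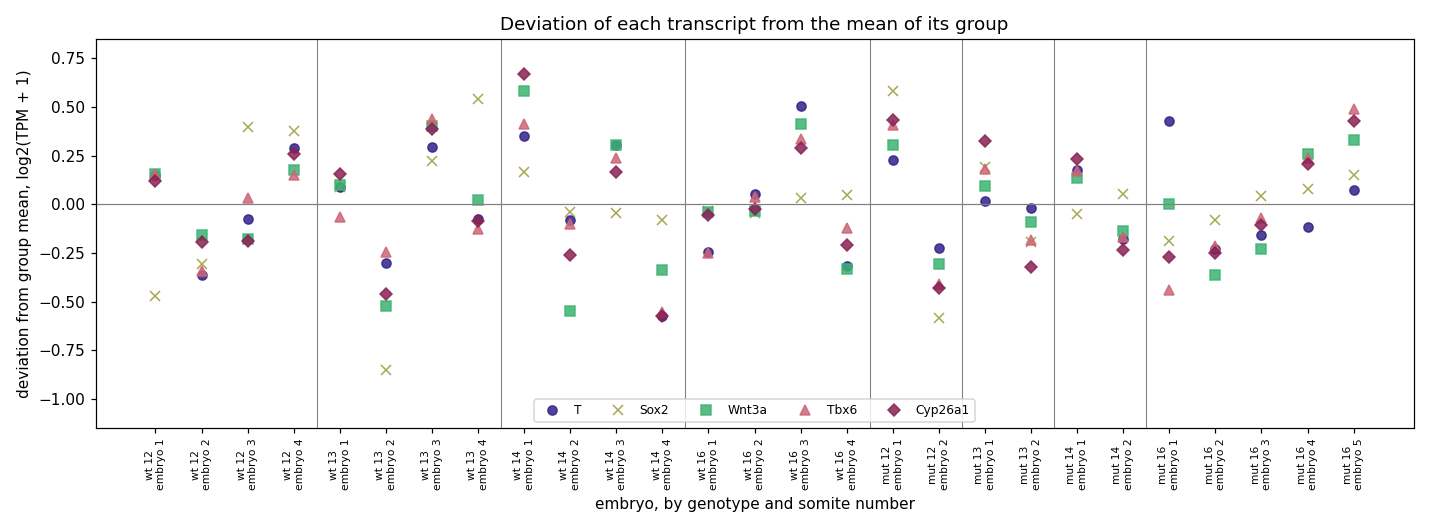
Deviation of log2(TPM + 1) from the mean of its group (y axis) for the 5 transcripts in each of the 27 embryos (x axis), with vertical lines between the 8 groups. T, Wnt3a, Tbx6 and Cyp26a1 lie on one side of 0 together in 21 embryos; mutant embryo 1 at 16 somites has T at 0.43 and Tbx6 at -0.44.

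Against the 24420 other transcripts whose CPM averaged 1 or more, the genes were ranked by Pearson r over the same 27 deviations. Cyp26a1 was the 3rd closest transcript to Tbx6 and the 4th closest to Wnt3a. Tbx6 was the 5th closest to Cyp26a1, and Wnt3a the 11th. Wnt3a was the 68th closest to T, Tbx6 the 293rd, and Cyp26a1 the 163rd. For Sox2 the nearest gene of the set was Cyp26a1, at rank 524. The median r of all transcripts was between -0.016 (to T) and 0.185 (to Wnt3a). The transcripts with higher ranks have no symbol in the sources used here and are not named. The spread within groups was above the median for their level, to unlike degrees. The SD of the deviations was 0.312 for T, 0.338 for Tbx6, 0.348 for Wnt3a, 0.368 for Sox2 and 0.371 for Cyp26a1. For Cyp26a1 this exceeds the SD of 91.7% of the 984 transcripts with a mean within a factor of 2 of its own (median 0.184). The share was 82.4% for Tbx6, 75.3% for T and 71.4% for Wnt3a, and for Sox2 64.0% of 6481 (median 0.311).

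Because Tbx6, Cyp26a1, Wnt3a and T varied together among embryos, the promoters of the 5 genes were searched for letters that the factors of this pathway recognise. Windows run from 250 bases before to 50 after the start of each gene (RefSeq, GRCm38.p6), and were matched by symbol for 5 of 5. The motifs were chosen after the windows had been read, so a match in them could be known in advance. The repeat was searched only with the exact half-site letters that the Cyp26a1 window holds. The share of windows with the repeat is therefore not a measure of how unexpected its match in Cyp26a1 is. A direct repeat spaced by 5 bases, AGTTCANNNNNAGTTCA, the type of element bound by retinoic acid receptors, was in 8 of 32851 windows (0.0244%, either strand), and the window of Cyp26a1 is 1 of them. The T-box half-site AGGTGT was in 13.7% of windows and in those of T and Cyp26a1, and the TCF/LEF letters CTTTGAA, bound by the partners of beta-catenin, in 5.14% and in that of T. The TATA letters TATAAA were in 13.6% of windows and in those of Tbx6 and Cyp26a1. They lie 43 bases before the start in Tbx6, but after the annotated start in Cyp26a1. The window of Cyp26a1 holds the half-site at 2 places, 183 and 202 bases before the start, which are not shown. The repeat of Cyp26a1 and the T-box half-site and TCF/LEF letters of T are shown 5′ to 3′ on the strand of the gene, with the matched letters in capitals. The repeat and the TCF/LEF letters match on the opposite strand.
Cyp26a1, repeat, chr19:37697770-37697799: taaagaTGAACTTTGGGTGAACTaatttgt
T, T-box half-site, chr17:8434397-8434426: gtgcagggacccAGGTGTaatctttgggct
T, TCF/LEF letters, chr17:8434177-8434206: ctgctcggtacTTCAAAGggtgtcccgccc
None of these 4 motifs was found in the windows of Sox2 and Wnt3a, which says only that the letters are not in those windows. The repeat lies 32 bases before the start of Cyp26a1. A match is a description of sequence, and no binding was measured in the tailbuds.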

How the data were processed

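RNA was measured in 27 tailbud libraries, and genotype, somite number and embryo number come from the sample titles. Per the submitters' processing notes, Trim Galore 0.5.0, Salmon 1.5.2 and DESeq2 1.46.0 were among the tools used; mm10 and hg38 are listed as builds with no role. The authors deposited 1 table per library with TPM values and estimated counts per transcript; 11.5% of the counts above 0 were whole numbers. Transcripts that share sequence can trade reads in such estimates. The annotation release is not given in the sources used here.

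The estimated counts were rounded and tested with edgeR 4.0.16 (R 4.3.3): filterByExpr on the 8 groups left 45394 of 89010 transcripts with any count, TMM factors were 0.884 to 1.22, and adjusted p-values are Benjamini-Hochberg over all transcripts tested, with a threshold of 0.05. Genotype was tested with stage as a factor, at each stage from 1 fit of the 8 groups, and as a slope per somite. Standard errors are the effect over the square root of F. Ratios were tested by exact permutation within stages over 425250 assignments. Alternatives were DESeq2 1.42.0, limma 3.58.1 (on log2(TPM + 1), and voom with quality weights), other filters and scalings, a replicate block, other treatments of stage, and leaving out embryos. The procedures were tested on simulated data, where the test of the difference of slopes made more false calls than its threshold allows; in the tailbuds it called 0 transcripts. Within groups, the 37 pairs of libraries differed by at least 13.2 times the sampling noise (chi-square over its degrees of freedom), so none was counted as a repeat of another. The labels do not say whether embryos share a litter, and p-values measure the spread between these samples.

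The 5 genes, all named with their values, and the motifs and gene lists were chosen with earlier results of these data known. Other transcripts were to be named only where paired with a symbol; 0 of 117135 identifiers could be paired, so the lists of pathway and tissue marker genes were not analysed here. Figures were drawn with matplotlib 3.10.9.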

Additional observations from a re-analysis of the deposited data

Results flagged for a closer look

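In 30 comparisons of an embryo with its group (groups of 4 or 5 embryos, 5 transcripts and library totals), 1 embryo stood apart by the gap to its nearest neighbour as a share of the range of its group. Sox2 in wild-type embryo 1 at 14 somites was 8.64 TPM, above a group that began at 7.11 TPM, and the gap was 0.848 of the range. Chance sets apart about 1 in 20 such groups. The value lies below the highest Sox2 value of the 12-somite mutants.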

How the results depend on the processing

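No transcript of the 5 passed the adjusted threshold in any of 1495 tests over all settings; the lowest adjusted p was 0.279. The limits are the 2 mutants at 3 of the 4 stages and, for Sox2, counts of 96 to 546. Signs of effects near 0 were not stable. Without a stage term the T effect over stages was 0.00017, and without the 16-somite embryos Tbx6 was 0.0080 and Cyp26a1 0.022; the slopes were then -0.082 for T and -0.029 for Tbx6 in wild type and 0.26 for Wnt3a in mutants. On log2(TPM + 1) with limma, T was -0.019 at 13 and -0.13 at 16 somites, Sox2 -0.12 at 16 somites, the mutant slope of Cyp26a1 -0.016 and the slope difference of Wnt3a -0.0016. Tbx6 at 13 somites was 0.0076 with no filter, 0.0016 with effective lengths as an offset and 0.0017 when fitted on that stage only; the slope difference of Wnt3a was -0.00051 with no filter and its mutant slope 0.0028 with the offset.

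Embryo numbers are shared between genotypes. The r of deviations was -0.118 to 0.0446 (median -0.0035) for 10 pairs with the same number. It was -0.187 to 0.187 for 34 pairs with different numbers, a range that holds the same-number values. Before 16 somites the mutant deviations mirror each other by construction, so each r there has a partner of opposite sign. With group means removed as well, these values cannot decide whether embryos with the same number share a litter or batch. With the replicate block Tbx6 at 13 somites was 0.032, Wnt3a at 14 somites 0.042, Sox2 at 16 somites -0.0038, the mutant slopes of Wnt3a and Cyp26a1 0.00023 and -0.0035, and the slope differences of Wnt3a and Tbx6 -0.014 and -0.030; calls over all transcripts were 1 for genotype (7 without it), 1 at 13 somites and 1 for mutant slopes.

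Calls over all transcripts moved more. DESeq2 made 189 for genotype, 301, 219, 188 and 253 at the single stages from 12 to 16 somites, 17 for stage differences, 42 and 206 for wild-type and mutant slopes and 61 for their difference, against 7, 0, 3, 3, 0, 3, 8, 10 and 0 by edgeR. Limma on log2(TPM + 1) made 49 for genotype, 8 for stage differences, 5 for mutant slopes, and 10, 7 and 6 at 12, 13 and 14 somites. For genotype there were 3 with no filter, 27 with a mean CPM of at least 1, 4 with somite number as a covariate, 15 with no stage term, 42 with voom weights, 32 without the 2 libraries that stand apart and 0 without 16 somites, where slopes also gave 0 in each genotype. Fits on 1 stage made 1 call at 12 somites and 0 at 13 and 14. The cause was not tested.

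Leaving out 1 embryo gave effects over stages of -0.13 to 0.0044 for T, -0.11 to 0.0023 for Tbx6 and -0.092 to 0.030 for Cyp26a1. For Sox2 they were 0.215 to 0.374 and for Wnt3a -0.28 to -0.19. Single stages gave -0.069 to 0.997 for Sox2 at 12 somites, -0.11 to 0.094 for Tbx6 and -0.062 to 0.43 for Cyp26a1 at 13, -0.053 to 0.28 for T, -0.20 to 0.23 for Wnt3a, 0.026 to 0.24 for Sox2 and -0.073 to 0.42 for Cyp26a1 at 14, and -0.16 to 0.21 for T and -0.0034 to 0.071 for Sox2 at 16. Where this left 1 mutant in a stage, that embryo was assumed to vary like the other groups. Slopes in wild type were -0.016 to 0.066 for T, -0.046 to 0.012 for Wnt3a, 0.043 to 0.094 for Tbx6 and -0.0010 to 0.044 for Cyp26a1, and in mutants -0.052 to 0.084 for Sox2, -0.050 to 0.029 for Wnt3a, 0.035 to 0.11 for Tbx6 and -0.050 to 0.035 for Cyp26a1. Slope differences were 0.069 to 0.17 for T, -0.19 to -0.057 for Sox2, -0.036 to 0.038 for Wnt3a, -0.038 to 0.037 for Tbx6 and -0.069 to 0.016 for Cyp26a1. The Tbx6 to T ratio gave -0.047 to 0.089, the Tbx6 to Sox2 ratio -0.48 to -0.30 and the T to Sox2 ratio -0.47 to -0.26. Calls were 1 to 25 for genotype, 0 to 37, 3 to 16, 3 to 19 and 0 to 1 at the 4 stages, 3 to 23 for stage differences, 4 to 13 and 3 to 10 for wild-type and mutant slopes and 0 to 1 for their difference.

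Within 1 genotype, some correlations that passed over all embryos did not pass the adjusted threshold. In mutants r was 0.589 for T with Wnt3a, 0.198 with Tbx6 and 0.373 with Cyp26a1. It was 0.660 for Sox2 with Wnt3a, 0.786 with Tbx6 and 0.798 with Cyp26a1, and 0.833 and 0.871 for Wnt3a with Tbx6 and Cyp26a1. Without mutant embryo 1 at 16 somites the 3 T values in mutants were 0.842, 0.911 and 0.877. In wild type the pairs that no longer passed were Sox2 with Wnt3a, Tbx6 and Cyp26a1 (0.388, 0.316 and 0.386). Sox2 with Tbx6 was 0.391 on log2 CPM and 0.483 without mutant embryo 1 at 16 somites.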
